A study of Homo sapiens with 4 samples.

Results

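The genes described here are 36 genes of interstrand crosslink repair, homologous recombination and the DNA damage checkpoint: FANCA, FANCB, FANCC, FANCD2, FANCE, FANCF, FANCG, FANCI, FANCL, FANCM, BRCA1, BRCA2, BRIP1, PALB2, BARD1, RAD51B, RAD51C, RAD51D, RAD51AP1, XRCC2, XRCC3, RAD54L, RAD54B, BLM, RBBP8, NBN, MRE11, RAD50, EXO1, UBE2T, ATM, ATR, CHEK1, CHEK2, CLSPN and TOPBP1. They were taken as a named list of genes that share these functions, with no threshold on their values, and all 36 were found among the 58226 gene IDs of the files. The list was chosen with earlier results of these data known. The data are RNA-seq of 4 libraries, and each condition has 1. The resistant line R-U87MG was transfected with si-NC or with si-HDAC6, and the parental line U87MG with si-NC or with si-LINC00461. U87MG is an established human glioblastoma cell line, R-U87MG is a line derived from it that was kept in 50 µM TMZ (temozolomide, a DNA-methylating drug used in glioblastoma), and si-NC is the control small interfering RNA. Total RNA was taken 72 h after transfection. HDAC6 is a cytoplasmic deacetylase, and LINC00461 is a long noncoding RNA. No condition was repeated, so no difference below has a replicate check and none was given a p-value.

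The Fanconi anemia (FA) pathway clears crosslinks that tie both strands of DNA together. Its core complex, with FANCL as the ubiquitin ligase and UBE2T as the ubiquitin-conjugating enzyme, places ubiquitin on the FANCD2-FANCI pair (the ID complex), which marks the site for incision and for homologous recombination. Recombination starts with end resection by MRE11, RAD50, NBN, RBBP8 (CtIP) and EXO1, goes on with filament assembly, in which BRCA1, BARD1, PALB2 and BRCA2 act with the paralog group of RAD51B, RAD51C, RAD51D, XRCC2 and XRCC3, and ends with strand exchange and the dissolution of joints. The kinases ATM and ATR, with CHEK1, CHEK2, CLSPN and TOPBP1, signal the damage to the cell cycle. Many of these genes are known to be transcribed mostly in S phase and G2 in dividing cells.

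The targeted genes were read first. HDAC6 had 296 fragments in R-U87MG si-NC and 67 in R-U87MG si-HDAC6 (log2 ratio -1.74), and LINC00461 had 363 fragments in U87MG si-NC and 73 in U87MG si-LINC00461 (log2 ratio -2.12). LINC00461 also had fewer fragments in R-U87MG si-HDAC6, with 80 against 154 (log2 ratio -0.55), whereas HDAC6 in U87MG si-LINC00461 had a log2 ratio of -0.08. Between the controls both were lower in R-U87MG si-NC than in U87MG si-NC, HDAC6 with 296 against 649 fragments (-1.13) and LINC00461 with 154 against 363 (-1.23). The libraries held 12596072 to 20027865 fragments. Among markers of the line, VIM, CD44 and NES had at least 441 fragments in every library, whereas SOX2, GFAP, S100B and FABP7 had 0 to 13 and OLIG2 had 15 to 115. VIM had 126719 fragments in U87MG si-NC and 56351 in U87MG si-LINC00461. In the same libraries CD44 had 32126 and 30726, and NES had 854 and 765. The leukocyte marker PTPRC had 0 to 3 fragments and the epithelial marker EPCAM 20 to 28. The endothelial marker PECAM1 had 16 to 52 fragments in 3 libraries and 433 in U87MG si-LINC00461; the part of such cells or of that gene in the results was not tested.

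All 36 genes were detected in all 4 libraries. The lowest count was 15 fragments (FANCB, a core complex subunit, in U87MG si-LINC00461) and the highest was 2465 (RAD50 in R-U87MG si-NC). Summed over the 36 genes, the level was 1618 CPM (fragments scaled to a fixed library total) in R-U87MG si-NC, 1423 CPM in R-U87MG si-HDAC6, 719 CPM in U87MG si-NC and 508 CPM in U87MG si-LINC00461. Levels were also compared between genes per kilobase of exon, with all annotated exons of a gene merged. On this scale the median gene stood at 5.61 CPM per kb in R-U87MG si-NC, 5.18 in R-U87MG si-HDAC6, 2.57 in U87MG si-NC and 1.29 in U87MG si-LINC00461. These sums and medians were scaled by library totals only, and the shift this gives between the lines is stated with the ratios below. TOPBP1, a scaffold that activates ATR, was the most abundant of the 36 in 3 libraries, with 18.7, 15.4 and 9.87 CPM per kb in R-U87MG si-NC, R-U87MG si-HDAC6 and U87MG si-NC. In U87MG si-LINC00461 its place was taken by RBBP8, with 8.09 CPM per kb. RAD51B, with 0.367 CPM per kb in U87MG si-NC and 0.691 in R-U87MG si-NC, was the least abundant in 3 libraries, and FANCB, with 0.235, in U87MG si-LINC00461. The merged exons can be longer than the transcript in use, so the order of genes and the ratios between genes depend on these lengths. A length is the same in every library, so it cancels when the ratio of a pair of genes is compared between libraries.

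**Figure D1:**
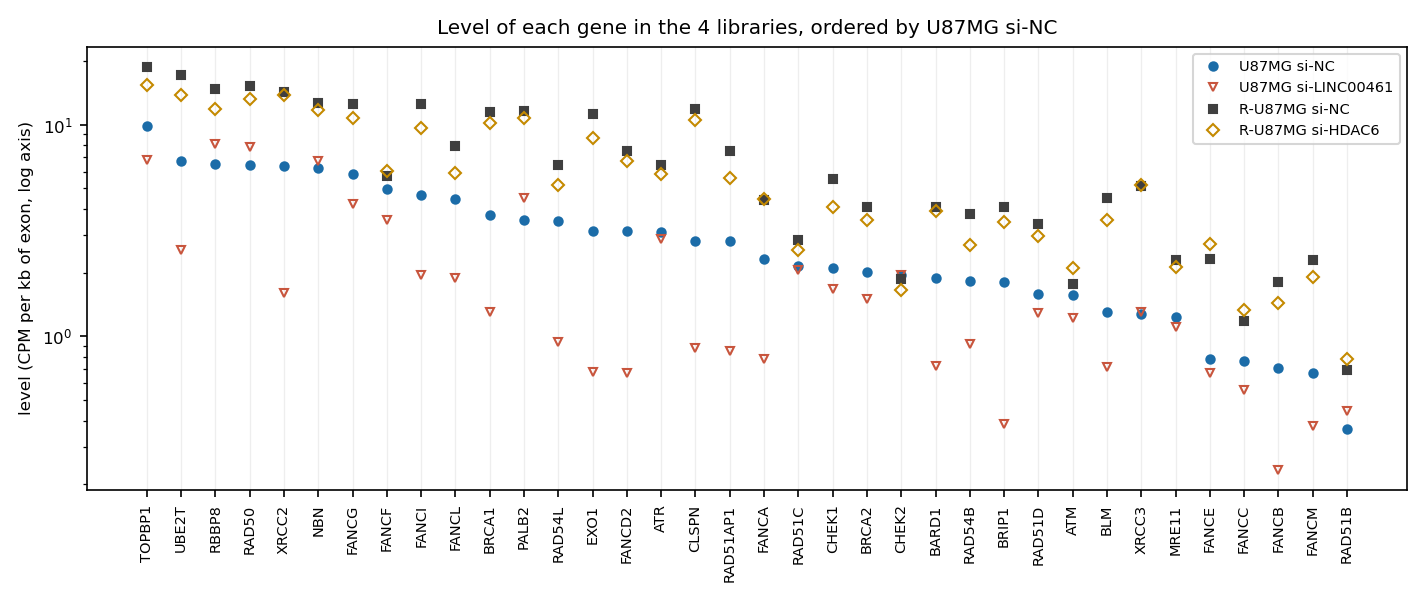
Level of each of the 36 genes in the 4 libraries, in CPM per kb of exon on a log axis, with the genes ordered by their level in U87MG si-NC (filled circles). The U87MG si-LINC00461 library (open triangles) lies far below the other libraries for FANCD2, BRIP1, EXO1 and XRCC2, and beside U87MG si-NC for CHEK2, XRCC3 and RAD51C; each point is 1 library.

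Ratios between libraries were taken on TMM-normalized counts (scaled so that most genes do not shift) and are given as log2 values with a 95% counting interval from an exact binomial calculation. These intervals cover the sampling of fragments only, not the spread between cultures. A gene was called at a difference of at least 2-fold, and all genes with a mean of at least 1 CPM in the 2 libraries were compared.

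After si-LINC00461 in U87MG, 14 of the 36 genes were at least 2-fold lower and 0 were higher. The 14 were FANCA, FANCB, FANCL, FANCD2, FANCI, UBE2T, BRCA1, BARD1, BRIP1, XRCC2, RAD51AP1, RAD54L, EXO1 and CLSPN. The shares over all 13210 genes compared were 8.17% lower and 5.42% higher by 2-fold. The median log2 ratio of the 36 genes was -0.50, against 0.00 over all genes compared, and 29 of the 36 lay below 0. For 11 of them the whole counting interval lay beyond 2-fold, as it did for 4.78% of all genes compared; FANCB, BARD1 and FANCL had intervals that reached inside 2-fold. RAD54B, at -0.97, was the nearest gene outside the threshold, and FANCL, at -1.22, the nearest inside it.

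After si-HDAC6 in R-U87MG, none of the 36 genes was 2-fold lower or higher. The shares over all 13120 genes compared were 0.747% lower and 0.694% higher by 2-fold. The differences of the 36 were small and mostly to the low side: 30 lay below 0 and 6 above, with a median log2 ratio of -0.20 against -0.01 over all genes compared. The counting interval lay wholly below 0 for 21 of them, against 16.4% of all genes compared, and wholly above 0 for ATM alone, against 13.8%. The range ran from -0.49 (RAD54B, a 1.41-fold lower count) to 0.25 (ATM, 1.19-fold higher). Each knockdown was done in only 1 of the lines. Where the knockdown pairs are set side by side, the siRNA target, the line and its culture in TMZ therefore cannot be told apart.

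In R-U87MG si-NC against U87MG si-NC, 13 of the 36 genes were at least 2-fold higher and 0 were lower. They were CLSPN, XRCC3, EXO1, BLM, FANCM, PALB2, BRCA1, FANCE, FANCI, RAD51AP1, CHEK1, FANCB and UBE2T. The shares over all 13349 genes compared were 11.2% higher and 15% lower by 2-fold. With library totals in place of TMM, 25 of the 36 were at least 2-fold higher, as were 18% of all genes compared. For 8 of the 13 the whole interval lay beyond 2-fold, against 6.34% of all genes compared. The median log2 ratio of the 36 was 0.88 against 0.02 over all genes compared, and 33 of the 36 lay above 0 (ATM and FANCF also did with library totals). FANCD2, at 0.996 (1.995-fold), was just outside the threshold and UBE2T, at 1.07, just inside it. This comparison reuses both si-NC libraries of the knockdown pairs, so it is not independent of them, and the line, its culture in TMZ and the single library of each cannot be told apart. Scaling by library totals instead of TMM moved the median of all genes compared up by 0.26 on the log2 scale here. The CPM values of single genes, the sums over the 36 and the medians per kb carry that shift.

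**Figure D2:**
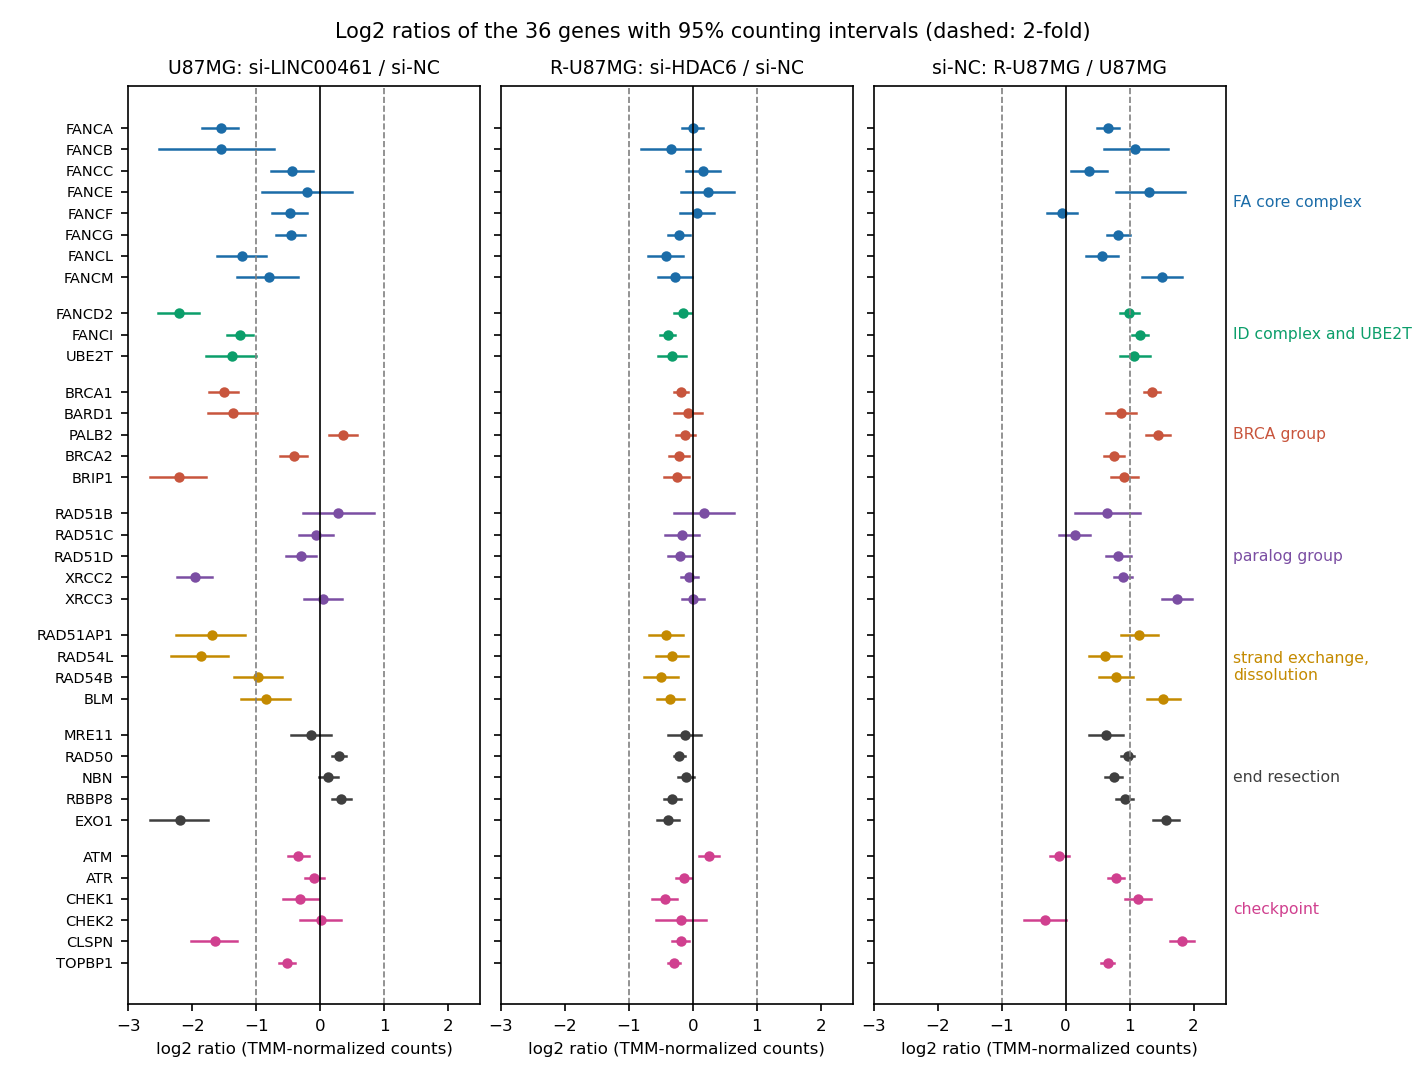
Log2 ratio of each of the 36 genes in the 3 comparisons, grouped by role; points are TMM-normalized ratios, horizontal lines are 95% counting intervals and dashed lines mark 2-fold. After si-LINC00461 the genes spread from -2.20 (BRIP1) to 0.36 (PALB2), after si-HDAC6 they stay between -0.49 and 0.25, and in R-U87MG against U87MG all but CHEK2, ATM and FANCF lie above 0 (with library totals, all but CHEK2). The knockdowns were done in different lines, so target and line cannot be told apart between their panels.

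Promoter sequence was set beside the split of the 36 genes in the parental pair into those at least 2-fold lower and the others. RefSeq (GRCh38.p14) gave a promoter, from 250 bases before to 50 after the start site, for 33 of the 36 genes (the first listed where a gene has several). FANCI, RAD54B and NBN had no entry. The words TTTCCCGC, TTTGGCGC and TTTCGCGC, core letters of the E2F site through which S-phase genes are known to be controlled, were searched on both strands. They were present in 6 of 33 promoters (18.2%), against 2.79% of all promoters in the table and 4.61% of the 9427 promoters of protein-coding genes compared in U87MG. Of the 13 genes with a promoter that were at least 2-fold lower after si-LINC00461, 4 held such a word (FANCD2, XRCC2, EXO1 and CLSPN), and of the other 20, 2 did (FANCC and TOPBP1). The 30 bases around 1 word in each of these 6 promoters are shown so that the sites in genes that were lower can be set beside those in genes within 2-fold. Each is written on the strand of its gene, 5′ to 3′, with the word or its reverse complement in capitals.
FANCD2 (chr3:10026424-10026453, + strand): cgtcgggcctgGCGGGAAAgtcgaaaacta
XRCC2 (chr7:152676102-152676131, - strand): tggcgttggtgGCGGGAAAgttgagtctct
EXO1 (chr1:241848197-241848226, + strand): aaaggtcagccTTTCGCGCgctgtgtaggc
CLSPN (chr1:35769965-35769994, - strand): actctggctggGCGGGAAAgcaagaacagc
FANCC (chr9:95317737-95317766, - strand): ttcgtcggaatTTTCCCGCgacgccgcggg
TOPBP1 (chr3:133661930-133661959, - strand): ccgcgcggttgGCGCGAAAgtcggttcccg
In FANCD2, CLSPN and TOPBP1 the word began 2, 5 and 7 bases before the RefSeq start site. In EXO1 and XRCC2 it began at base 5 and base 22 of the transcript, counted from 1 at the start site. The word shown for FANCC began 46 bases before the start, and another began 172 bases before it. FANCD2 (word TTTCCCGC) and TOPBP1 (word TTTCGCGC) held different words at nearly the same place. Their log2 ratios after si-LINC00461 were -2.20 and -0.52. The part of such words in the differences was not tested.

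Of the other words, GGGCGG (the core of the Sp1 site, which can share letters with an E2F word, as it does in CLSPN) stood in all 13 promoters of the lower genes and in 13 of the other 20, against 44.6% of all promoters and 70.5% of those of protein-coding genes compared. CCAAT was in 15 of 33 (45.5%) against 35.7% of all promoters and 36.6% of those of protein-coding genes compared. By the split, it was in 6 of the 13 promoters of the lower genes (46.2%) and in 9 of the other 20 (45%). The words TTTGAA and TTTAAA, letters of the cell cycle homology region found in G2/M genes, were in 6 of 33 (18.2%). This was below the 24.3% of all promoters and above the 15.7% of those of protein-coding genes compared. Either word was in 2 of the 13 promoters of the lower genes (15.4%) and in 4 of the other 20 (20%). A word is a description of the letters in this window and not evidence that a factor is bound there.

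Among the 8 genes of the FA core complex, 3 were at least 2-fold lower after si-LINC00461 and all 8 lay below 0 (median -0.64). FANCA, a large scaffold subunit, stood at 22.6 CPM in U87MG si-NC, 7.59 in U87MG si-LINC00461, 43.0 in R-U87MG si-NC and 43.2 in R-U87MG si-HDAC6. Its fragments went from 453 to 135 in the parental pair, a log2 ratio of -1.56 (-1.85 to -1.28), whereas the R-U87MG pair was at 0.00 (-0.17 to 0.16). FANCL, the ligase subunit, stood at 10.7, 4.56, 19.1 and 14.3 CPM in the same order of libraries. It was thus lowest in U87MG si-LINC00461 (215 to 81 fragments, -1.22, from -1.61 to -0.85), and after si-HDAC6 it had the lowest log2 ratio of the core complex, -0.43 (-0.70 to -0.16). FANCB stood at 2.55, 0.844, 6.49 and 5.16 CPM. Its 51 and 15 fragments gave -1.55 after si-LINC00461 with a wide interval, from -2.52 to -0.73.

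The other core complex genes differed by less than 2-fold in the parental pair. FANCM, the DNA translocase that recruits the complex to DNA, stood at 5.69, 3.21, 19.4 and 16.1 CPM. Its log2 ratio was -0.81 after si-LINC00461 and 1.502 (1.19 to 1.83) in R-U87MG si-NC against U87MG si-NC. FANCE, which binds FANCD2, stood at 2.10, 1.80, 6.25 and 7.38 CPM, and its log2 ratio between the controls was 1.30 (0.78 to 1.86). FANCM and FANCE were therefore 2-fold apart between the lines but not within either pair. FANCC, FANCF and FANCG had log2 ratios of -0.44, -0.47 and -0.46 after si-LINC00461, all with intervals below 0. FANCF was 1 of the 4 genes of the 36 whose interval between the lines held 0, at -0.06 (-0.30 to 0.18), or at 0.21 with library totals.

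All 3 genes of the ID complex and its enzyme were at least 2-fold lower after si-LINC00461, with a median of -1.38. FANCD2 stood at 26.2 CPM in U87MG si-NC, 5.63 in U87MG si-LINC00461, 62.8 in R-U87MG si-NC and 56.5 in R-U87MG si-HDAC6. Its fragments went from 525 to 100 in the parental pair, a 4.59-fold lower level (-2.20, from -2.53 to -1.89). Its partner FANCI stood at 36.2, 15.1, 97.4 and 74.8 CPM, with 724 and 268 fragments in the parental pair (-1.24, from -1.45 to -1.04). The intervals of these partners did not overlap, so FANCD2 was the lower of them by more than counting error: the ratio of FANCD2 to FANCI in CPM per kb was 0.672 in U87MG si-NC and 0.346 in U87MG si-LINC00461, and 0.598 and 0.701 in R-U87MG si-NC and si-HDAC6. UBE2T stood at 11.1, 4.22, 28.2 and 22.7 CPM (-1.38 after si-LINC00461, from -1.78 to -1.0013). After si-HDAC6, FANCI was the lowest of these 3 at -0.39 (-0.51 to -0.27), and all 3 intervals lay below 0.

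The BRCA group was split. BRIP1, a helicase that binds BRCA1, stood at 14.5 CPM in U87MG si-NC, 3.09 in U87MG si-LINC00461, 32.8 in R-U87MG si-NC and 27.7 in R-U87MG si-HDAC6. Its log2 ratio after si-LINC00461, -2.20 (290 to 55 fragments, from -2.65 to -1.79), was within counting error of those of FANCD2 (-2.20) and EXO1 (-2.19), and which of these 3 was lowest changed with the pseudocount and with thinning. BRCA1 stood at 34.5, 12.04, 105.5 and 93.0 CPM, with 690 and 214 fragments in the parental pair (-1.4995, from -1.73 to -1.28). It shares 120 exonic bases on the same strand with AC060780.1, and its values passed as whole fragments in 3 of the 4 libraries. BARD1, which forms a ubiquitin ligase with BRCA1, stood at 11.4, 4.39, 24.8 and 23.7 CPM (-1.35, from -1.75 to -0.98). These 3 genes were thus lowest in the same library, and the ratio of BRCA1 to BARD1 per kb was 1.999 in U87MG si-NC and 1.81 in U87MG si-LINC00461.

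PALB2, which links BRCA1 to BRCA2, went the other way. It stood at 16.8, 21.3, 54.8 and 50.7 CPM, and its log2 ratio of 0.36 (0.15 to 0.58) after si-LINC00461 was short of 2-fold; RBBP8 and RAD50, at 0.33 and 0.30, lay within its interval. PALB2 and BRCA1 were at nearly equal levels per kb in U87MG si-NC, R-U87MG si-NC and R-U87MG si-HDAC6, at ratios of 0.942, 1.004 and 1.06, whereas in U87MG si-LINC00461 the ratio was 3.43. The nearly equal levels rest on the merged exon lengths used, 4747 bases for PALB2 and 9187 for BRCA1. BRCA2, which PALB2 brings to the break, had a log2 ratio of -0.41 (-0.62 to -0.21). Between the lines the 5 genes of the group were all higher in R-U87MG, from 0.75 (BRCA2) to 1.44 (PALB2), and after si-HDAC6 all 5 lay between -0.25 and -0.08.

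In the paralog group, XRCC2 was the only one of the 5 at least 2-fold lower after si-LINC00461. It stood at 30.8 CPM in U87MG si-NC, 7.82 in U87MG si-LINC00461, 69.1 in R-U87MG si-NC and 66.9 in R-U87MG si-HDAC6 (617 to 139 fragments in the parental pair, -1.96, from -2.24 to -1.70). RAD51B, RAD51C, RAD51D and XRCC3, which act in complexes with it or with each other, had log2 ratios of 0.29, -0.06, -0.29 and 0.05. XRCC2 thus stood apart from its partners: per kb it was at 3.99 times the level of RAD51D in U87MG si-NC and 1.26 times in U87MG si-LINC00461. These ratios rest on merged exon lengths of 4853 bases for XRCC2 and 11304 for RAD51D. Without the lengths, RAD51D stood at 17.97 CPM in U87MG si-NC and 14.51 in U87MG si-LINC00461. XRCC3 differed between the lines instead, with 9.59 and 9.79 CPM in the parental libraries and 38.5 and 38.8 CPM in the R-U87MG libraries. Its log2 ratio in R-U87MG si-NC was 1.74 (1.51 to 1.98). RAD51C was another of those 4, at 0.14 (-0.11 to 0.39).

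The 4 genes of strand exchange and dissolution were all lower after si-LINC00461, with a median of -1.32. RAD54L, a motor protein of strand exchange, stood at 11.3, 3.04, 20.7 and 16.7 CPM (226 to 54 fragments, -1.87, from -2.33 to -1.44). RAD51AP1, a cofactor of strand exchange, stood at 7.19, 2.19, 19.1 and 14.4 CPM (144 to 39 fragments, -1.68, from -2.25 to -1.18). BLM, the helicase that dissolves double Holliday junctions, stood at 8.69, 4.78, 30.1 and 23.7 CPM, and its -0.84 in the parental pair was short of 2-fold. After si-HDAC6 these 4 had the lowest median of the 7 roles, -0.39, and all 4 intervals lay below 0. RAD54B, at -0.97 and -0.49 in the parental and resistant pairs, shares 3139 exonic bases on the same strand with FSBP. Its deposited values were not whole fragments in any library, so its values are uncertain. Division of its fragments between genes in the authors' counting would give such values, but how they counted is not given.

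End resection was split as well. EXO1, the exonuclease of long-range resection, stood at 13.03 CPM in U87MG si-NC, 2.81 in U87MG si-LINC00461, 46.5 in R-U87MG si-NC and 35.8 in R-U87MG si-HDAC6. Its fragments went from 261 to 50 in the parental pair (-2.19, from -2.66 to -1.76), its log2 ratio after si-HDAC6 was -0.39 (-0.56 to -0.22), and between the lines it was 1.57 (1.37 to 1.78). The genes of the first resection step were not lower in the parental pair by 2-fold or near it. RBBP8 stood at 33.0, 41.2, 75.1 and 60.6 CPM, with a log2 ratio of 0.33 (0.18 to 0.49) after si-LINC00461. NBN and MRE11 were at 0.13 and -0.14 there, both with intervals that hold 0. RAD50 was at 0.30 (0.19 to 0.41), but its exons share 7784 bases with AC116366.3 on the same strand and its values were not whole fragments. Per kb, EXO1 was at 2.54 times the level of MRE11 in U87MG si-NC and 0.611 times in U87MG si-LINC00461, and 4.88 and 4.09 times in R-U87MG si-NC and si-HDAC6.

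Among the 6 checkpoint genes, CLSPN (Claspin, the adaptor through which ATR activates CHEK1) was the only one at least 2-fold lower after si-LINC00461. It stood at 15.2 CPM in U87MG si-NC, 4.78 in U87MG si-LINC00461, 64.4 in R-U87MG si-NC and 56.7 in R-U87MG si-HDAC6. Its log2 ratio in the parental pair was -1.65 (-2.02 to -1.30), and between the lines it was 1.81 (1.63 to 2.004), beside XRCC3 at 1.74. The kinases were nearer to level in the parental pair, with ATR at -0.09, CHEK2 at 0.01, CHEK1 at -0.31 and ATM at -0.34. TOPBP1, with 1444 and 885 fragments, was at -0.52 (-0.64 to -0.40). CHEK1, the effector kinase of ATR, stood at 13.7, 11.0, 36.1 and 26.8 CPM, and on TMM-normalized counts it was 2.19-fold higher in R-U87MG si-NC than in U87MG si-NC. It had a log2 ratio of -0.44 (-0.64 to -0.24) after si-HDAC6. ATM, the kinase that answers double-strand breaks, stood at 37.7, 29.4, 42.3 and 50.7 CPM. Between the lines ATM and CHEK2 had log2 ratios of -0.10 (-0.25 to 0.05) and -0.33 (-0.66 to 0.00), and ATM was at 0.16 with library totals.

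Lists of proliferation genes stood lower or higher beside the 36 in each comparison. In the S-phase list of Seurat (43 genes), 26 were at least 2-fold lower after si-LINC00461, with a median of -1.42, and in its G2/M list (54 genes) 45 were, with a median of -2.15. The medians of the 2 lists were -0.21 and -0.25 after si-HDAC6, and 1.01 and 0.76 in R-U87MG si-NC against U87MG si-NC. The shift of the 36 was in the same direction as that of both lists in all 3 comparisons. RAD51AP1, BLM, EXO1 and CLSPN belong to the S-phase list and 32 of the 36 to neither. Of those 32, 11 were at least 2-fold lower after si-LINC00461, and their median was -0.45, then -0.19 after si-HDAC6 and 0.82 between the lines. The part of the share of dividing cells in the differences of the 36 genes was not tested, and in bulk RNA fewer cells that express a gene and less of its RNA per cell cannot be told apart.

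**Figure D3:**
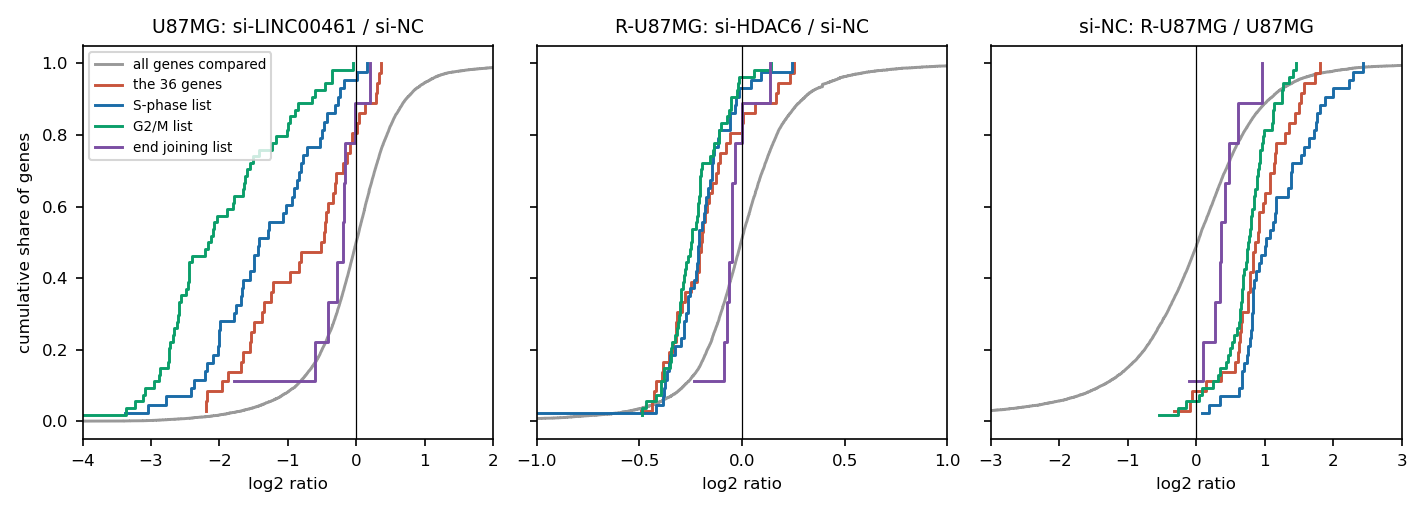
Cumulative share of genes by log2 ratio in the 3 comparisons for the 36 genes, all genes compared, the S-phase and G2/M lists and the end joining list; the x axes differ in range and leave out the tails. After si-LINC00461 the curve of the 36 genes has its median at -0.50, against -1.42 for the S-phase list and -0.20 for the end joining list, and it crosses the end joining curve in its upper part, where 7 of the 36 lie above 0; after si-HDAC6 it runs with both phase lists, at medians of -0.20, -0.21 and -0.25.

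Other genes of the same pathways had medians nearer to 0 in the parental pair. Of 15 other FA and crosslink repair genes, 1 was at least 2-fold lower after si-LINC00461 and the median was -0.02. That gene was EME1, a subunit of a junction-cutting nuclease, with 178 and 35 fragments (-2.14). SLX4, the nuclease scaffold, was at -0.77, and ERCC4 and FAAP100 were the highest of the list at 0.56 and 0.57. After si-HDAC6, EME1 and FAAP24 were the lowest at -0.41 and -0.39. FAN1, a crosslink nuclease, was the only one of the 15 at least 2-fold higher there, with 47 fragments in R-U87MG si-NC and 82 in R-U87MG si-HDAC6 (1.19, from 0.66 to 1.74), and ERCC1 came next at 0.06. Between the lines 2 of the 15 were at least 2-fold higher in R-U87MG si-NC, RFWD3 at 1.003 and USP1, which removes ubiquitin from FANCD2, at 1.07. WDR48, the partner of USP1, was the lowest at -0.75, and FAAP20 was at -0.43.

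Of 15 other recombination genes compared in the parental pair, 2 were at least 2-fold lower and 1 was higher, with a median of -0.03. The resolvase GEN1 had 444 fragments in U87MG si-NC and 146 in U87MG si-LINC00461 (-1.41, from -1.70 to -1.14), and RMI2, a partner of BLM, had 185 and 75 (-1.11). WRN was at 0.61. TOP3A, the topoisomerase that works with BLM, was higher in both knockdown libraries than in the si-NC library of the same line. Less of its RNA with si-NC and more of it after the knockdowns cannot be told apart here. It had 45 fragments in U87MG si-NC and 180 in U87MG si-LINC00461 (2.18, from 1.71 to 2.69), and 54 in R-U87MG si-NC and 220 in R-U87MG si-HDAC6 (2.41, from 1.98 to 2.88). Both pairs gave whole fragments for TOP3A. HELQ and RPA3 were the lowest of the list after si-HDAC6, at -0.41 and -0.31, and RPA1 was at 0.07. Between the lines 3 of the 14 compared were at least 2-fold higher, led by DNA2, a resection nuclease, at 1.64 and SFR1 at 1.13, with RMI1 at 1.05. RMI2 and RAD52 were at 0.06 and -0.13.

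Of 21 other checkpoint genes compared, 3 were at least 2-fold lower after si-LINC00461, with a median of -0.16. CDC25C, a phosphatase of mitotic entry, had 91 and 9 fragments (-3.08), and WEE1, the kinase that opposes it, had 589 and 152 (-1.76), and CDC25A was at -1.57. RNF168 and ATRIP were the highest at 0.54 and 0.42. After si-HDAC6 none of the 21 reached 2-fold; the extremes were CDC25C at -0.40, RNF8 at -0.25, WEE1 at 0.26 and RAD9A at 0.28. Between the lines 5 of the 21 were at least 2-fold higher in R-U87MG si-NC. ATRIP, the partner of ATR, led them with 190 against 45 fragments (2.07), though its values in these libraries were not whole fragments. TIPIN followed at 1.89, then CDC25A, TIMELESS and CDC25B at 1.68, 1.24 and 1.23, while BABAM2 and BRCC3 were at -0.46 and -0.43. CDC25A in the parental pair, and RMI1, CDC25A, TIMELESS and CDC25B between the lines, were named after their values were seen, to complete these counts.

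End joining, the double-strand break pathway that uses no template, had medians nearer to 0 than those of the 36 in all 3 comparisons. Of its 9 genes, POLQ, the polymerase of microhomology-mediated joining, was the only one at least 2-fold lower after si-LINC00461, with 548 and 139 fragments (-1.79), and the median was -0.20. XRCC4 was at -0.61, LIG4 at -0.02 and DCLRE1C at 0.20. In this pair 8 of the 9 lay below 0 and 1 above. For 6 of them the counting interval lay wholly below 0, against 33.4% of all genes compared. After si-HDAC6 the median was -0.05, from XRCC4 at -0.23 and XRCC5 at -0.09 to NHEJ1 at 0.00 and PAXX at 0.14. Between the lines it was 0.36 and none reached 2-fold. LIG4 was at -0.11, NHEJ1 at 0.10, XRCC4 at 0.60 and PAXX at 0.96. There 8 of the 9 lay above 0 and 1 below. For 7 of them the counting interval lay wholly above 0, against 39.4% of all genes compared.

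Several of the 36 lie against another gene on the opposite strand, which lets the difference be read at 1 place in the genome from both sides. A start site of another gene in the opposite direction lay within 1000 bases for 19 of the 36 (GENCODE 29), and for 10 of them that neighbour was abundant enough to compare in the parental pair. The start of a gene was taken as its outermost annotated end, which need not be the start in use in these cells. None of the 10 neighbours was 2-fold lower or higher after si-LINC00461; they ran from -0.31 to 0.68. For the 4 genes among them that were at least 2-fold lower, the neighbours stayed between 0.00 and 0.37. FANCD2 was at -2.20 and CIDECP, whose start lies 49 bases away, at 0.12. RAD51AP1 was at -1.68 and C12orf4, 290 bases away, at 0.10. FANCB was at -1.55 and MOSPD2, 372 bases away, at 0.37. BRCA1 was at -1.4995 and NBR1, 236 bases away, at 0.00. By these annotated starts the difference was on 1 side of each of the 4 pairs. Which start of BRCA1 was in use was not tested, so it may not share a start with NBR1.

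Where exons overlap on opposite strands the picture was the same. FANCA shares 2302 exonic bases with ZNF276, RAD54L 806 with LRRC41, FANCI 458 with POLG and FANCL 452 with VRK2, and these neighbours had log2 ratios of 0.21, 0.18, 0.15 and 0.34 after si-LINC00461. The libraries were strand-specific, but whether the authors counted by strand is not given in the sources used here. For XRCC3, which shares 5756 bases with KLC1, fragments of the 2 genes may therefore be mixed. The 8 named pseudogene copies of CHEK2, FANCD2, MRE11, RAD51AP1 and RBBP8 were at 0 in all 4 libraries.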

How the data were processed

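RNA-seq of 4 libraries, 1 per condition, was analysed. Per the labels, the authors processed reads with bcl2fastq, Trimmomatic 0.36 and HISAT2 on GRCh38.p13; the counting program and the annotation are not given in the sources used here. For each Ensembl gene ID the authors deposited an estimated count of fragments that had been scaled by a factor of its library. Each was divided by its library's factor and rounded to a whole number; 93.4% to 94.2% of values above 0 were within 0.02 of one. This undoes the scaling by pair, but not the alignment, or any division of fragments shared between genes. Symbols came from GENCODE 29.

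Pairs of libraries were TMM-normalized (edgeR 4.0.16), and log2 ratios were taken with a pseudocount of 0.5 for genes with a mean of at least 1 CPM. Intervals are exact binomial (Clopper-Pearson, 95%) and cover counting error only. A call was a 2-fold difference; with 1 library per condition no test was run. The calculation of ratios and intervals was run on simulated counts that held counting error only and were scaled by library totals. That run could not test TMM or the spread between cultures. The alternatives were other scalings (DESeq2 1.42.0 size factors among them), pseudocounts, filters and thresholds. The 36 genes and the lists beside them were chosen with earlier results of these data known. 1 gene of the list of other recombination genes is not reported here. The genes named from the other lists are the 2 lowest and the 2 highest of each in a comparison.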

Additional observations from a re-analysis of the deposited data

How the results depend on the processing

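No paired analysis was possible because each condition has 1 library. After si-HDAC6 no gene of the 36 was called under any alternative run. After si-LINC00461 the count of lower genes ran from 11 to 17, except for the 3-fold threshold, which left 7. In R-U87MG si-NC against U87MG si-NC the 13 higher genes became 25 with library totals, with a median of 1.14 in place of 0.88. They became 30 at 1.5-fold, 2 at 3-fold and 8 with the whole interval beyond 2-fold. The thresholds change the count by construction. In each comparison the shares over all genes compared were not computed at 1.5-fold or 3-fold, so those counts have no background beside them. The cause of the shift between scalings was not tested. Single ratios kept inside their counting interval in all 252 alternative values of each knockdown and in 225 of 252 between the lines, and no gene called at 2-fold changed sign. The signs that did change were those of FANCA after si-HDAC6, RAD51B (0.29, or -0.02 when thinned), XRCC3 and CHEK2 after si-LINC00461, and FANCF and ATM between the lines. Leaving out the genes without whole fragment numbers was chosen after seeing the data and left 14 lower genes after si-LINC00461 and 12 higher between the lines. The lowest gene after si-LINC00461 was BRIP1, but FANCD2 with a pseudocount of 5 (-2.15 against -2.11) and EXO1 when thinned (-2.34 against -2.19). Depth limits FANCB, FANCE and RAD51B most.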
